A study of Mus musculus with 6 samples.

Results

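The genes described here are 10 components of Wnt signalling, namely the R-spondin receptors Lgr6 and Lgr4, the ligand Rspo3, the secreted modulators Sfrp1, Sfrp2, Dkk2 and Dkk3, the ligand Wnt5a, and the Wnt target genes Axin2 and Lef1. They were measured by 23 probe sets, each annotated to 1 of these symbols alone, out of 45101 probe sets that name 18193 genes. Lgr6 was chosen by its intensities, because both homozygote arrays lay below the other 4, so its values in homozygotes are a description and carry no test, while the other 9 genes belong to the same pathway.

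Total RNA came from primary embryonic fibroblasts, which are cells grown out of mouse embryos after the head and inner organs were removed. The embryos were collected at 12.5 days post coitum from intercrosses of mice heterozygous for a deletion of exon 2 of Cas (p130Cas, gene symbol Bcar1), a docking protein of integrin adhesions that is phosphorylated by Src-family kinases. The groups were 2 homozygotes (Cas exon 2∆/∆), 2 heterozygotes (Cas exon 2+/∆) and 2 wild types (Cas exon 2+/+), each array from a separate embryo, and the strain is given as B6 for every array except wild type 1, for which no strain is given. All cultures shared the same medium with serum and antibiotics, the labels name no other agent, and the cultures are mixtures of whatever embryonic cells attached, so fewer cells of a type and less RNA per cell cannot be told apart in any value below.

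Wnt proteins are secreted, lipid-modified ligands that bind Frizzled receptors. In the canonical branch they stabilise beta-catenin, which enters the nucleus and acts with Tcf and Lef factors on targets such as Axin2. R-spondins bind Lgr receptors and thereby hold back the ubiquitin ligases Znrf3 and Rnf43, which otherwise clear Frizzled receptors from the membrane. Secreted frizzled-related proteins bind Wnts directly, and Dickkopf proteins act at the Lrp co-receptors. In embryonic mesenchyme these genes are known from limb, skin and skeletal patterning.

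The arrays themselves set the frame for every value. The median deposited intensity was 26.0 and 21.9 in homozygotes, 25 and 27.3 in heterozygotes, and 23.7 and 22.6 in wild types. Bcar1 had intensities of 268 and 324 in homozygotes, 283 and 366 in heterozygotes, and 711 and 309 in wild types, but no source used here places its probes inside or outside exon 2, and the values are no check of the deletion. The level of 3 Y-linked genes minus that of Xist, relative to the mean of the arrays on the log2 scale, was 6.19 and 4.56 in homozygotes, -6.12 and -6.31 in heterozygotes, and -3.56 and 5.24 in wild types. Sex-linked expression and genotype therefore cannot be told apart between homozygotes and heterozygotes. Within a genotype this level differed widely only between the wild types. A covariate for it, as used below, therefore rests almost wholly on wild type 1 against wild type 2. It carries the difference of these arrays over to the other genotypes, and whether that difference comes from sex was not tested. Fibroblast markers were above the intensity filter for 13 of 13 genes, and their summed deposited intensity was 74252 and 68867 in homozygotes, 74317 and 82919 in heterozygotes, and 54570 and 67950 in wild types. Wild type 1 held the lowest value of 24.1% of the 22519 tested probe sets and the highest value of 26.4%, where homozygote 1 held 22.1% and 18.7% and the other 4 arrays between 9.94% and 17.6%.

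Promoter windows of 300 bases, 250 before and 50 after the annotated start, were taken from RefSeq (GRCm38.p6), in which 6 of the 10 genes had a window. The windows of Lgr6 and Lgr4 are shown because these paralogous receptors had different orders across the genotypes on their brighter probe sets. The low homozygotes of Lgr6 were the reason for its choice and were absent from its other probe set, so this contrast is no result. The window of Sfrp2 is shown because its level varied most among the measured genes. Capitals mark CG dinucleotides, of which there were 24 in Lgr6, 18 in Lgr4 and 22 in Sfrp2, against a median of 7 over 32851 windows. Of all windows, 80% had fewer than Lgr6, 70.3% fewer than Lgr4 and 76.9% fewer than Sfrp2, so such counts are common. The windows shown lie at chr1:135105227-135105526 on the minus strand, chr2:109917397-109917696 on the plus strand and chr3:83766071-83766370 on the plus strand.
Lgr6: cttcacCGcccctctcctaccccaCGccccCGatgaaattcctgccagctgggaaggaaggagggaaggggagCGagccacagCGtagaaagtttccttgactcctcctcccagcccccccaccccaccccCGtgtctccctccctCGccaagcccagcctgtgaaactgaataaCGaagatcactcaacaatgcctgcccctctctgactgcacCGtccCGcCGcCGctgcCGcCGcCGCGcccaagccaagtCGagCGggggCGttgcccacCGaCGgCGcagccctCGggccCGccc
Lgr4: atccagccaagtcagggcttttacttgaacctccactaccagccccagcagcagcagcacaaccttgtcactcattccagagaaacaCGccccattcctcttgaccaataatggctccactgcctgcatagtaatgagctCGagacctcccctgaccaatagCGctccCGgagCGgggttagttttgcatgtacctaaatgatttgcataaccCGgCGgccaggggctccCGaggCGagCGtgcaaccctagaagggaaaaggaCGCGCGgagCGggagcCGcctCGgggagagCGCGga
Sfrp2: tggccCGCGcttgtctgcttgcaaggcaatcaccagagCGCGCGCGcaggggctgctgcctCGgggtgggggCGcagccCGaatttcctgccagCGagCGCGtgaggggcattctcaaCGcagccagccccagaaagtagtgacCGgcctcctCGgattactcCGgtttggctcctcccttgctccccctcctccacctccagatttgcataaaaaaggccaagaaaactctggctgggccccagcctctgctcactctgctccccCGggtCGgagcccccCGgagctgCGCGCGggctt

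Tcf and Lef factors bind a short word such as CTTTGAA, which was searched on both strands together with its variants CTTTGAT as well as CTTTGTA and likewise CTTTGTT. They occurred in 16.9% of all windows and in 1 of 9 windows of these genes, which is the most 3′ of 4 Lef1 starts (chr3:131156044-131156343 on the plus strand), shown here with the match in capitals, beginning 147 bases before the start.
Lef1: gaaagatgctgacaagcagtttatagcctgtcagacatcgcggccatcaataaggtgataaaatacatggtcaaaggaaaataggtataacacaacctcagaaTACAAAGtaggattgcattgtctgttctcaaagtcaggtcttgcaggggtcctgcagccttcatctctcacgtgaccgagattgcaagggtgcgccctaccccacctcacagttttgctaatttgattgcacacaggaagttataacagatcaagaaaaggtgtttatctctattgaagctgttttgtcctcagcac

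The word TATAAA occurred on either strand in 13.6% of windows and in 2 of the 9, that Lef1 window and the window of Dkk2 (chr3:132085042-132085341 on the plus strand), where it began 32 bases before the start and is in capitals.
Dkk2: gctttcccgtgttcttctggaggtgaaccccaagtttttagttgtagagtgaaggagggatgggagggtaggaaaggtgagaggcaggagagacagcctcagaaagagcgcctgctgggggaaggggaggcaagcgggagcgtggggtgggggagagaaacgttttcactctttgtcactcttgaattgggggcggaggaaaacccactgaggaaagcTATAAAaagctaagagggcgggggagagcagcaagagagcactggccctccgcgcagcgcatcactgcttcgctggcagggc

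A match or its lack describes only these letters in these windows.

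Among the receptors, Lgr6, an R-spondin receptor known from hair follicle and other epithelial progenitors, was dim. Its brighter probe set (1427028_at) had deposited intensities of 20.4 and 12.5 in homozygotes, 35.1 and 35.9 in heterozygotes, and 45.5 and 31.3 in wild types. Both homozygotes were the lowest arrays, by construction of the choice, and heterozygotes and wild types overlapped. On the scale of log2(intensity + 1.78) after quantile normalization, the level was 4.20 ± 0.29 in homozygotes, 5.12 ± 0.08 in heterozygotes and 5.39 ± 0.33 in wild types (SD, n = 2 each). Homozygotes thus lay 2.08-fold below the mean of the other genotypes, with a log2 difference of -1.06, and their higher array was 0.67 log2 units below the lowest of the other 4. The difference between heterozygotes and wild types, which the choice did not use, was -0.26 (SE 0.27, limma adjusted p = 0.889). With a pseudocount of 16 the homozygote difference was -0.69.

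The other Lgr6 probe set (1436218_at) did not show this order. It lay below the intensity filter, with 20.2 and 13.8 in homozygotes, 11.2 and 11.1 in heterozygotes, and 30.4 and 12.3 in wild types. Both homozygotes here lay above both heterozygotes and within the range of the wild types. Without a filter its log2 difference of homozygotes from the rest was 0.21 (limma adjusted p = 1). No source used here says which Lgr6 transcripts either probe set detects.

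**Figure D1:**
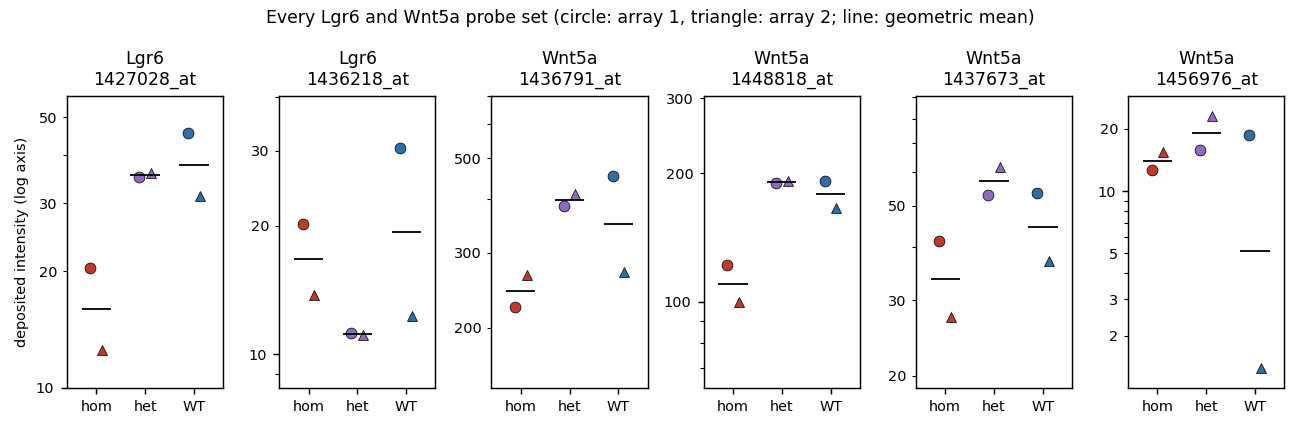
Deposited intensity on log axes for the 2 Lgr6 and 4 Wnt5a probe sets, with homozygous (hom), heterozygous (het) and wild-type (WT) arrays from left to right, 1 point per array and a line at the geometric mean. Homozygotes lie below the rest for Lgr6 1427028_at, with 20.4 and 12.5, but not for Lgr6 1436218_at, and for Wnt5a 1448818_at, with 122 and 99.7.

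Lgr4, the broadly expressed receptor of the same family, was bright and had another order. Its main probe set (1433891_at) had intensities of 789 and 592 in homozygotes, 762 and 717 in heterozygotes, and 408 and 363 in wild types. Both mutant genotypes lay above both wild types and overlapped each other. The log2 level was 9.48 ± 0.33 in homozygotes, 9.47 ± 0.23 in heterozygotes and 8.63 ± 0.02 in wild types (SD, n = 2 each). Against wild type, homozygotes differed by 0.86 (SE 0.26, unadjusted p = 0.0151, limma adjusted p = 0.973) and heterozygotes by 0.85 (SE 0.26, unadjusted p = 0.0156, limma adjusted p = 0.838). These comparisons share the wild-type arrays, and neither passed the threshold of 0.05. Lgr4 was the member above the filter whose wild-type arrays lay closest together, and without wild type 1 the differences were 0.83 and 0.82. The other Lgr4 probe set was below the filter, between 3.55 and 11.3 on every array.

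Rspo3, a ligand of these receptors, had intensities of 800 and 969 in homozygotes, 1640 and 1150 in heterozygotes, and 426 and 847 in wild types (1455607_at). The heterozygotes were the highest arrays, and wild type 2 lay between both homozygotes. Heterozygotes differed from wild types by 1.14 (log2, SE 0.44, unadjusted p = 0.04, limma adjusted p = 0.838), and by 0.55 without wild type 1. Homozygotes differed from the rest by 0.01 (95% interval -0.92 to 0.94, limma adjusted p = 1). The dim second Rspo3 probe set had its highest values in the heterozygotes too, 51.8 and 33.8, against 12.7 and 21.8 in wild types.

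Wnt5a, a ligand that acts mainly through beta-catenin-independent signalling and the receptor Ror2, had both homozygotes as its lowest arrays on 3 of its 4 probe sets after normalization. The probe set 1448818_at had 122 and 99.7 in homozygotes, 190 and 192 in heterozygotes, and 192 and 166 in wild types. Both homozygotes lay below every other array, and heterozygotes and wild types did not separate. Its log2 difference of homozygotes from the rest was -0.68 (SE 0.19, unadjusted p = 0.0101, limma adjusted p = 1), between -0.76 and -0.61 with any single array left out. Against heterozygotes alone it was -0.66 (SE 0.22, limma adjusted p = 1), and heterozygotes differed from wild types by -0.05 (SE 0.22, limma adjusted p = 0.974).

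The brightest Wnt5a probe set (1436791_at) had 224 and 266 in homozygotes, 386 and 411 in heterozygotes, and 453 and 271 in wild types. Wild type 2 lay just above homozygote 2. Its difference from the rest was -0.55 (SE 0.24, limma adjusted p = 1), but -0.04 with a covariate for sex-linked expression. The dimmer probe set 1437673_at had 41.4 and 27.5 in homozygotes, 53.0 and 61.7 in heterozygotes, and 53.6 and 37.1 in wild types, with a difference of -0.53 (SE 0.22, limma adjusted p = 1) and -0.18 with that covariate. Its homozygotes were below all other arrays only after quantile normalization, since wild type 2 was below homozygote 1 in the deposited values. With the covariate the difference of 1448818_at was -0.67 (unadjusted p = 0.116, limma adjusted p = 0.978). The fourth probe set was below the filter, and its homozygotes, at 12.6 and 15.4, lay between both wild types, at 18.7 and 1.40. As a mean of all Wnt5a probe sets, this dim one included, the difference of homozygotes from the rest was -0.35 (limma unadjusted p = 0.247).

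Leaving out the chosen Lgr6 probe set, 3 of the 14 member probe sets above the filter, all of Wnt5a, had both homozygotes below all other arrays, where 4.02% of all tested probe sets did. In 0 of the 14 were both homozygotes above the others, where 3.27% of all tested probe sets were. Probe sets of 1 gene share its RNA and are not separate observations. Neural and glial markers were also low in homozygotes, where 6 of 9 measured genes were above the filter, all 6 of them lower on average, and the summed deposited intensity was 652 and 586 in homozygotes, 1420 and 2476 in heterozygotes, and 2792 and 1905 in wild types. Most of the sum outside homozygotes was Stmn2, with 346 and 254 in homozygotes, 1120 and 1900 in heterozygotes, and 2050 and 1500 in wild types. Tubb3 was highest in homozygote 2, at 139. Macrophage markers had 14 of 15 genes above the filter, all 14 of them higher on average in homozygotes. Their sums were 16344 and 7825 in homozygotes, 5765 and 5961 in heterozygotes, and 3470 and 7205 in wild types. In the deposited values homozygote 2 was not above wild type 2 for every one of these markers. Keratinocyte and epithelial markers had 5 of 11 genes above the filter, 3 of them lower in homozygotes with a median of -0.40 over the 5, and sums of 551 and 678 in homozygotes, 714 and 781 in heterozygotes, and 1268 and 654 in wild types, while Krt5, Krt14, Krt15, Trp63 and Cdh1 were below the filter. None of these markers passed the adjusted test, and the part of these cell types in the values of Lgr6 and Wnt5a was not tested.

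**Figure D2:**
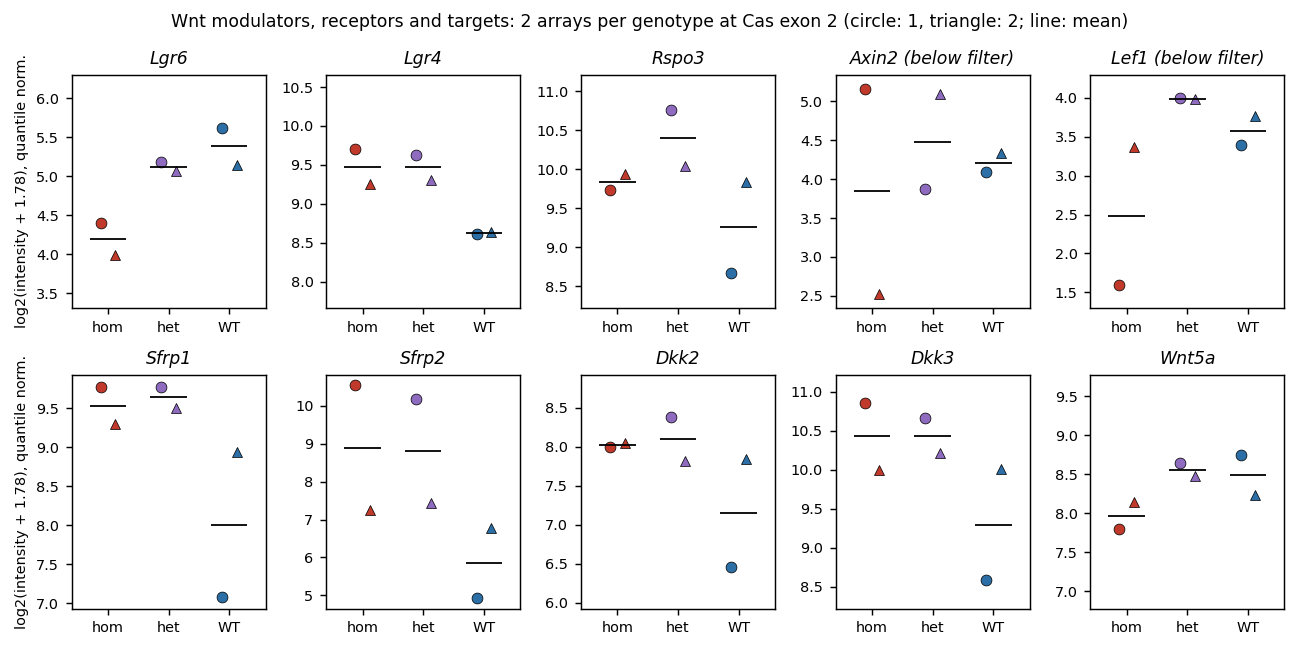
Log2(intensity + 1.78) after quantile normalization for the brightest probe set of each of the 10 genes, by genotype from homozygous (hom) through heterozygous (het) to wild type (WT), with 1 point per array, a line at the mean of 2 arrays and axes that differ in position. Wild type 1 is the lowest array for Lgr4, Rspo3, Sfrp1, Sfrp2, Dkk2 and Dkk3, and homozygotes are the lowest arrays for Lgr6, Wnt5a and Lef1.

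The secreted frizzled-related protein Sfrp1, which binds Wnts outside the cell, had its lowest value in wild type 1 on all 5 of its probe sets, 3 of which come from the same source sequence. The brightest (1428136_at) had 819 and 615 in homozygotes, 840 and 808 in heterozygotes, and 133 and 446 in wild types. Homozygotes and heterozygotes overlapped, and both lay above the wild types, which differed from each other by 3.36-fold. Homozygotes differed from wild types by 1.53 (log2, SE 0.58, unadjusted p = 0.0379, limma adjusted p = 0.973) and heterozygotes by 1.63 (SE 0.58, unadjusted p = 0.0299, limma adjusted p = 0.838). Without wild type 1 these differences were 0.60 and 0.70. The heterozygote difference was 2.56 without wild type 2 (limma adjusted p = 0.192) and 3.15 with a covariate for sex-linked expression (limma adjusted p = 0.0741), and over the 5 probe sets it was between 2.32 and 3.92 with that covariate. Over the 5 probe sets, the homozygote difference from the rest ranged from 0.10 to 1.00, none with an adjusted p under 1, and with the covariate for sex-linked expression it was between -1.37 and -1.02. Not every probe set separated the mutants from the wild types after normalization. Homozygotes overlapped wild types on 1448395_at and 1438620_x_at, and heterozygotes overlapped them on 1416594_at.

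Sfrp2, its close relative, varied most among these genes, by 48.5-fold between the lowest and the highest array. It had 1340 and 142 in homozygotes, 1110 and 199 in heterozygotes, and 27.7 and 97.1 in wild types (1448201_at). Arrays of the same genotype differed by 9.47-fold in homozygotes, 5.56-fold in heterozygotes and 3.50-fold in wild types. Both wild types were nevertheless the lowest arrays. The log2 difference was 3.05 (SE 1.33, unadjusted p = 0.0595, limma adjusted p = 0.973) for homozygotes against wild types and 2.96 (SE 1.33, unadjusted p = 0.0651, limma adjusted p = 0.838) for heterozygotes against wild types, and 1.42 and 1.60 without the brighter mutant array of each comparison. Against both other genotypes, homozygotes differed by 1.57 (95% interval -1.21 to 4.35), and by -0.07 without homozygote 1.

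Dkk2, a Dickkopf protein that binds the Lrp co-receptors, had 252 and 249 in homozygotes, 320 and 257 in heterozygotes, and 84.6 and 205 in wild types (1420512_at). Both wild types were the lowest arrays in the deposited values, wild type 1 by far, while after normalization wild type 2 lay among the heterozygotes. Homozygotes differed from wild types by 0.87 (SE 0.47, limma adjusted p = 0.973), and by 0.18 without wild type 1. Dkk3, a divergent relative whose action on Wnt signalling is less settled, had 1670 and 1010 in homozygotes, 1540 and 1310 in heterozygotes, and 400 and 951 in wild types (1417312_at). Heterozygotes lay above wild types by 1.14 (SE 0.53, limma adjusted p = 0.838), and by 0.42 without wild type 1. A second Dkk3 probe set from the same source sequence had 934 and 688, 1130 and 903, and 233 and 722 in the same order of genotypes. With the covariate for sex-linked expression the differences of homozygotes from the rest were -0.65 for Sfrp2, -0.83 for Dkk2, -0.86 for Dkk3 (1417312_at) and -1.01 for Rspo3, where without it they were 1.57, 0.39, 0.56 and 0.01. Those of heterozygotes from wild types were larger with it, at 4.90 for Sfrp2, 2.01 for Dkk2, 2.38 for Dkk3 (1417312_at) and 2.04 for Rspo3, where without it they were 2.96, 0.95, 1.14 and 1.14, and none had a limma adjusted p under 0.15. The values with the covariate rest almost wholly on the contrast of wild type 1 with wild type 2.

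Wild type 1 was the lowest array for 11 of the 15 member probe sets above the filter, which belong to 6 of the 8 genes, where it was the lowest for 24.1% of all tested probe sets. These genes were Lgr4, Rspo3, Sfrp1, Sfrp2, Dkk2 and Dkk3. For Lgr4 this holds after normalization only, since its deposited value was lower in wild type 2. The same array had the lowest summed fibroblast markers (54570) and macrophage markers (3470, against 5765 to 16344 on the other arrays), while its summed skeletal muscle markers were the highest (3507, against 222 to 1026), almost wholly through Acta1. Its neural and glial markers (2792, against 586 to 2476, with Stmn2 at 2050) and its keratinocyte and epithelial markers (1268, against 551 to 781) were the highest too. The defining muscle regulators Myod1, Myog, Myf5 and Pax7 were below the filter. Cartilage and tendon markers were also lowest there (474, against 609 to 1353), with 6 of 8 measured genes above the filter. The part of these cell types in the low values of wild type 1 was not tested.

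Across the 6 arrays the secreted modulators followed each other. Pearson's r of the normalized log2 levels was 0.97 between Sfrp1 and Dkk3, 0.96 between Sfrp1 and Dkk2, and 0.92 between Sfrp2 and Dkk3. Without wild type 1 these were 0.87, 0.59 and 0.98. The other pairs had 0.92 for Dkk2 and Dkk3, 0.84 for Sfrp1 and Sfrp2, and 0.78 for Sfrp2 and Dkk2. Without wild type 1 those were 0.50, 0.89 and 0.65, so part of the likeness rests on that array. Lgr4 and Sfrp1 had an r of 0.82, and 0.98 without that array, and Lgr6 and Wnt5a 0.79 and 0.69. The points share the same RNA extracts and normalization, and the level of Lgr6 in homozygotes was the reason for its choice, so these values only describe the 6 arrays.

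**Figure D3:**
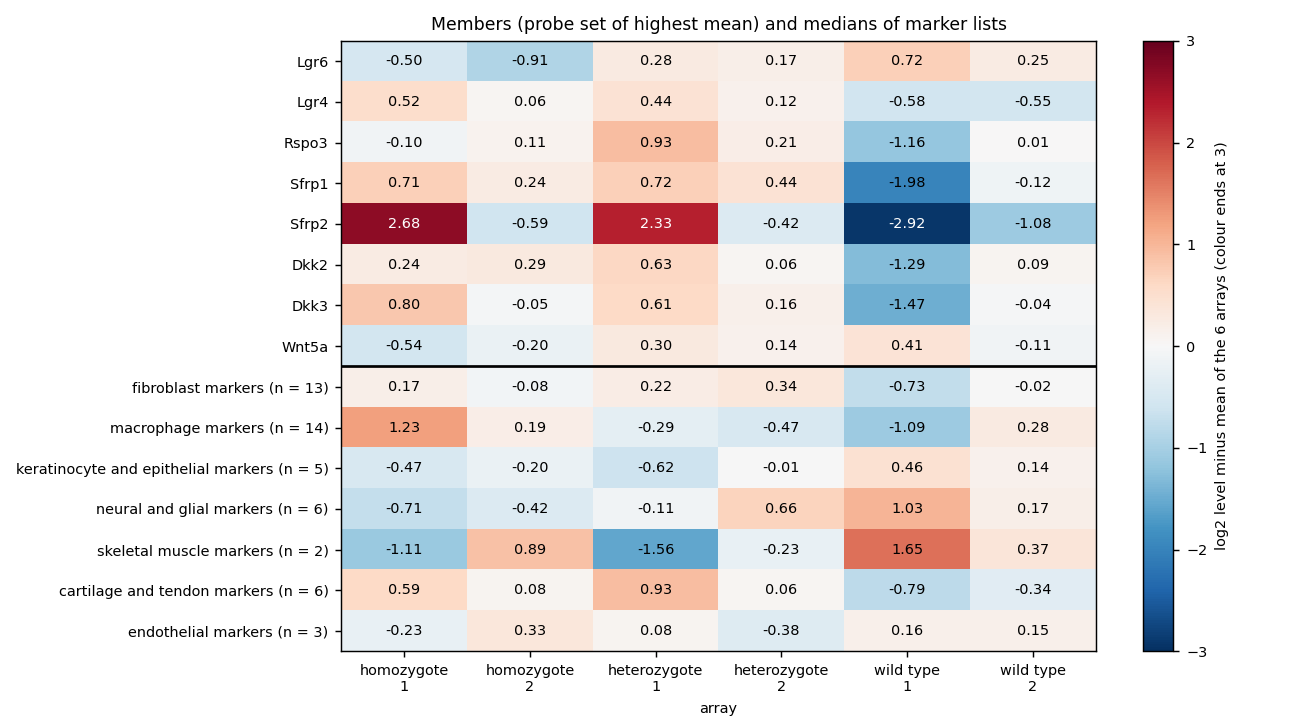
Log2 level minus the mean of the 6 arrays, by array from homozygotes on the left to wild types on the right, for 8 genes above the line (brightest probe set) and the medians of marker lists below it, with colours that end at 3. In wild type 1 Sfrp2 lies at -2.92, Sfrp1 at -1.98 and the fibroblast markers at -0.73, while Lgr6 lies at 0.72.

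The target genes among the members, Axin2 and Lef1, were dim, with every probe set below the intensity filter. Axin2, the feedback scaffold of the beta-catenin destruction complex and a widely used readout of the pathway, had both probe sets below the filter. The brighter (1436845_at) had 36.3 and 3.34 in homozygotes, 13.5 and 36.3 in heterozygotes, and 15.1 and 17.2 in wild types. The dimmer (1421341_at) had 17.9 and 11.6 in homozygotes, 2.41 and 2.09 in heterozygotes, and 10.7 and 15.0 in wild types. The probe sets gave different orders, since heterozygotes were the lowest arrays only on the dimmer one. There, without a filter, heterozygotes differed from wild types by -1.94 on the log2 scale (unadjusted p = 0.00146, limma adjusted p = 0.422), and homozygotes from the rest by 1.15 (unadjusted p = 0.00816, limma adjusted p = 0.667).

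Lef1, the nuclear partner of beta-catenin and itself a target, had 1.29 and 7.39 in homozygotes, 14.8 and 15.3 in heterozygotes, and 8.75 and 11.2 in wild types (1454734_at). Both homozygotes were below the other 4 arrays, by 0.03 log2 units at the closest after normalization. Without a filter the difference from the rest was -1.30 (unadjusted p = 0.055, limma adjusted p = 1). The other Lef1 probe set had 0.453 and 4.62 in homozygotes, 2.09 and 1.02 in heterozygotes, and 7.61 and 1.82 in wild types, without separation. No probe set of either target passed the adjusted test.

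**Figure D4:**
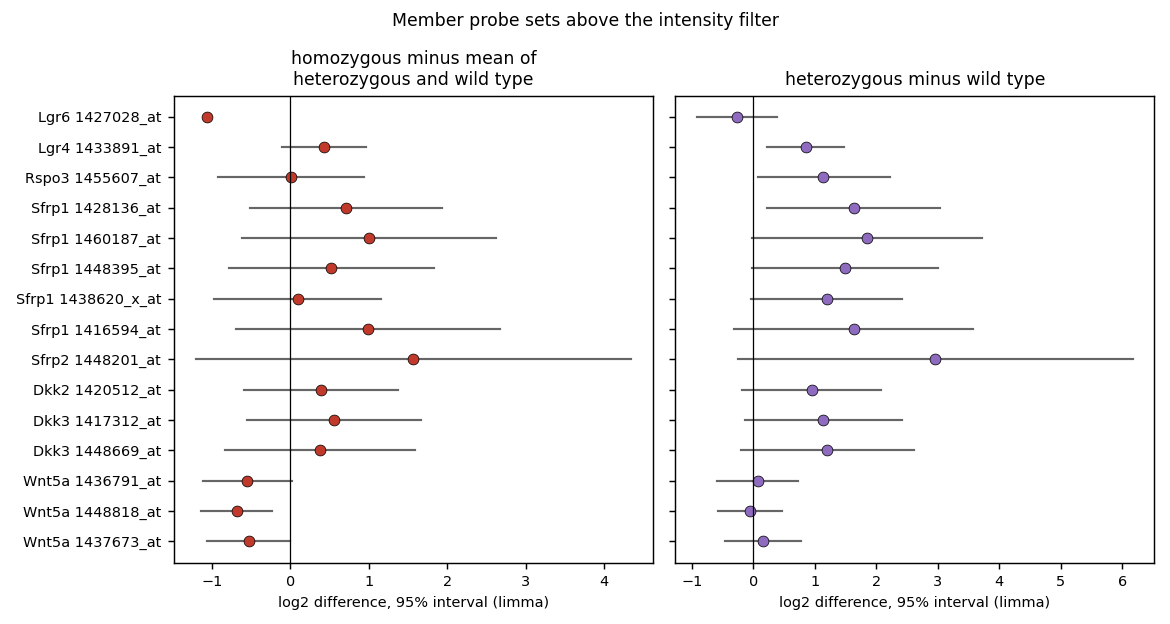
Log2 differences with their 95% intervals from limma for the 15 member probe sets above the filter, homozygous minus the mean of the other genotypes on the left and heterozygous minus wild type on the right. The chosen Lgr6 probe set is drawn without an interval on the left, at -1.06, where only the interval of Wnt5a 1448818_at, at -0.68, excludes 0, and on the right those of Lgr4, Rspo3 and Sfrp1 1428136_at lie above 0.

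In homozygotes against both other genotypes, limma called 0 of 14 member probe sets, as it called 0% of the 22519 tested. The chosen Lgr6 probe set is left out of each count that involves homozygotes. At an unadjusted p under 0.05 there was 1 of 14, Wnt5a 1448818_at, against 2.49% of all tested probe sets. Homozygotes against wild types gave 4 of 14 at this unadjusted limit, against 3.8% of all tested, and 6 of 14 with both homozygotes above both wild types, against 13.3%, as well as 3 of 14 with both below, against 14.9%. Homozygotes against heterozygotes gave 1 of 14, again Wnt5a 1448818_at, against 2.17%, and 5 of 14 with both homozygotes below, against 12.8%, and 0 of 14 with both above, against 12%. Heterozygotes against wild types, with Lgr6 included, gave 3 of 15, against 5.26%, and 9 of 15 with both heterozygotes above, against 17.9%, and 0 of 15 with both below, against 19.3%. The adjusted test called 0 in each of these comparisons too. The median log2 difference was 0.41 over the 14 probe sets for homozygotes against the rest and 1.14 over the 15 for heterozygotes against wild types, where that of all tested probe sets was 0 and -0.01. With 5 probe sets for Sfrp1 and 3 for Wnt5a, and members chosen with results known, these counts describe the set.

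The rest of the pathway was examined through 6 lists that overlap in 5 genes and hold 86 further genes, of which 84 were measured and 55 were above the filter. Of these 55, 29 were higher and 26 lower in homozygotes than in the other genotypes, with a median log2 difference of 0.01 beside -0.01 for all 11373 genes tested. None passed the adjusted test, and 1 had an unadjusted p under 0.05. This was Lgr5, the third R-spondin receptor and a stem cell marker of the gut.

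Lgr5 had 410 and 177 in homozygotes, 252 and 171 in heterozygotes, and 26.1 and 71.7 in wild types. Both wild types were the lowest arrays, and the mutant genotypes overlapped. The difference of homozygotes from the rest was 1.53 (SE 0.53, unadjusted p = 0.026, limma adjusted p = 1), but 0.0075 with the covariate for sex-linked expression and 0.97 without homozygote 1. Of the R-spondin receptors, Lgr4 and Lgr5 had their lowest arrays in wild types. Lgr6 (1427028_at) was lowest in homozygotes by its choice, so its contrast with the others is no result. Its other probe set (1436218_at) was lowest in heterozygotes. Rspo2, another R-spondin, had 2010 and 1290 in homozygotes, 3340 and 1860 in heterozygotes, and 409 and 1340 in wild types, with a difference of 0.34 (SE 0.58, limma adjusted p = 1). The ubiquitin ligase Znrf3 differed by 0.20 (SE 0.34, limma adjusted p = 1).

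Among ligands and their processing genes, 8 of 20 measured genes were above the filter, 4 higher and 4 lower. Wnt6 was at 6.93 and 35.3 in homozygotes, 41.1 and 49.3 in heterozygotes, and 22.7 and 26.0 in wild types (difference -0.91, SE 0.59, limma adjusted p = 1), and at 0.24 without homozygote 1. Wnt5b, the closest relative of Wnt5a, differed by -0.37 (SE 0.47) and Wnt9a by -0.26 (SE 0.41), each with a limma adjusted p of 1. Of the Frizzled, Lrp and Ror receptors, 14 of 15 were above the filter, 6 higher and 8 lower, with differences of -0.54 for Fzd10 (SE 0.34), -0.40 for Fzd5 (SE 0.29) and 0.26 for Fzd2 (SE 0.25). Against heterozygotes alone 13 of these 14 receptors were lower, with a median of -0.22, where 6022 of all 11373 genes tested were lower, with a median of -0.01. Against wild types 6 of the receptors were lower and their median was 0.11. The lean against heterozygotes was not particular to receptors, since 14 of 18 transduction genes were lower too, though only 3 of 10 other target genes.

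Of further secreted antagonists, 5 of 13 measured were above the filter, 3 higher and 2 lower. Frzb, a frizzled-related protein of cartilage, was at 57.4 and 98.0 in homozygotes, 208 and 102 in heterozygotes, and 87.7 and 89.8 in wild types (difference -0.59, SE 0.43). Sfrp4 differed by 0.50 (SE 0.33) and the matrix-associated Cthrc1 by 0.61 (SE 0.49), and with the covariate for sex-linked expression they were at -0.50 and -0.91. Among transduction genes 18 of 20 were above the filter, 10 higher and 8 lower, with a median of 0.03. The beta-catenin partner Tcf7l2 differed by -0.45 (SE 0.22), with 85.5 and 85.2 in homozygotes below 146 and 123 in heterozygotes and 105 and 107 in wild types, but by 0.23 when all its probe sets were averaged. Its relative Tcf7l1 differed by 0.37 (SE 0.20) and the Dishevelled gene Dvl1 by -0.27 (SE 0.21). Of other target genes 10 of 15 measured were above the filter, 6 higher and 4 lower, among them the feedback inhibitor Nkd2 (-0.58, SE 0.25, and 0.05 with the covariate) and cyclin D1 or Ccnd1 (-0.54, SE 0.32). The limma adjusted p was 1 for every gene of this paragraph.

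**Figure D5:**
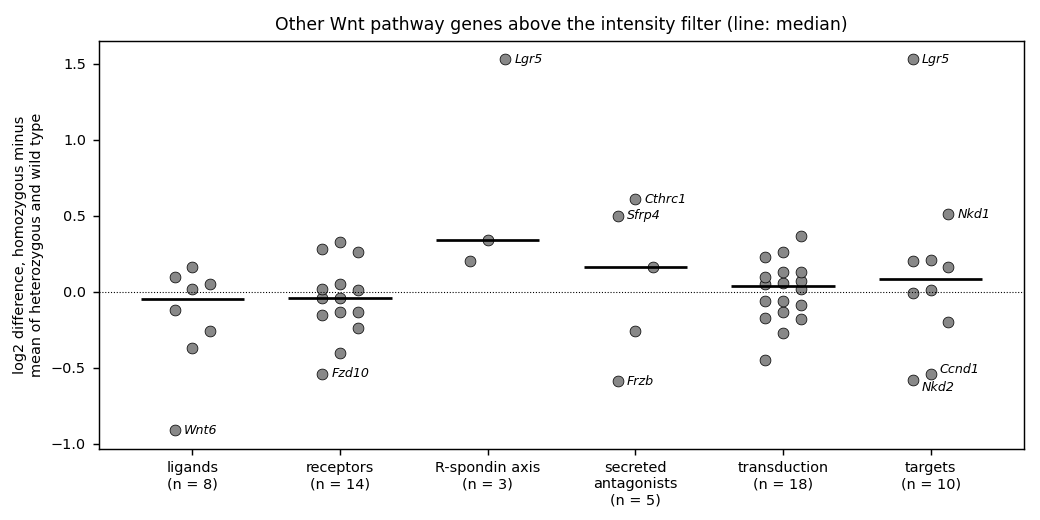
Log2 difference of homozygous arrays from the mean of the heterozygous and wild-type means for other Wnt pathway genes above the intensity filter, by list, with 1 point per gene and a line at the median. Lgr5, at 1.53 and in 2 of the lists, and Wnt6, at -0.91, lie farthest from 0.

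The genes whose pattern over the 6 arrays was most like that of Lgr6 (1427028_at), by Pearson's r of the normalized log2 levels among 11010 genes, were Parpbp (0.986), Mapk11 (0.985), Fbxo34 (0.983), Dennd5a (0.981) and Cenpo (0.977). Parpbp, a partner of the DNA repair enzyme Parp1, had 22.0 and 15.5 in homozygotes, 38.1 and 33.6 in heterozygotes, and 42.3 and 32.8 in wild types. An r of at least 0.95 was reached by 15 of the 11010 genes. Other probe sets above the filter gave -0.09 for Parpbp, -0.01 for the stress-activated kinase gene Mapk11 and 0.69 for the centromere protein gene Cenpo, so for Parpbp and Mapk11, as for Lgr6, the pattern was that of a single probe set.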

How the data were processed

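RNA of 6 fibroblast cultures, 2 embryos per genotype, was hybridised to Affymetrix arrays from 2 µg of total RNA, per the labels' protocols. The deposited table holds 1 intensity per probe set and array on a linear scale, as its values show. For how the authors summarised probes and scaled the arrays, no method was given in the sources used here. The deposited intensities had array medians that spanned 0.29 log2 units, so log2(intensity + 1.78), with the 10th percentile as pseudocount, was quantile-normalized. Control probe sets (64) were left out, and the upper 50% by mean level, 22519 of 45037, were tested with limma 3.58.1 in R 4.3.3 (residual df 3, prior df 3.28) over all 3 groups, with Benjamini-Hochberg adjustment and a threshold of 0.05. The fit was run on simulated data with added log2 differences of 3 and 6 in either direction. Most differences given here are smaller, and that run does not cover them.

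Symbols came from GEO's platform annotation, which gave 1 symbol to 34945 probe sets, several to 932 and none to 9160. For other genes the probe set of highest mean level stood for the gene. Named were all members, the 3 genes of smallest unadjusted p in each other Wnt list (for targets, Lgr5 fell in 2 lists), the 5 genes most correlated with Lgr6, and Bcar1. The members and lists were chosen with earlier results of these data known. Marker genes were given by list, except Acta1, Stmn2, Tubb3 and the defining muscle and epithelial genes below the filter, which were named after their values were seen. Each array is a separate embryo and culture, whose spread the p-values measure, and 2 arrays per group limit the precision. The wild types also differed in sex-linked expression, and no strain is given for wild type 1. The p-values do not separate this from other spread between embryos. Same-numbered arrays did not deviate together (correlations -0.14, -0.14 and -0.36), so numbers were not treated as pairs.

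Alternatives were no normalization or median scaling, pseudocounts of 1 and 16, no filter or the upper 25%, the mean of a gene's probe sets, a variance trend, a replicate block, a covariate for sex-linked expression, and leaving out each array.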

Additional observations from a re-analysis of the deposited data

How the results depend on the processing

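Of 920 values recomputed under alternatives for 59 results, 46 turned sign. Of the others, 871 kept their direction and, where tested, their side of the threshold, whatever their size. The values of Lgr6 in homozygotes among them have no test and differed by less than the spread between arrays. The remaining 3, also of Lgr6 in homozygotes, differed by more than that spread. Every tested value had an adjusted p above the threshold in the main setting, so keeping that side says little about stability. The number of probe sets called by limma was 0 in each comparison, and 0 to 2 for homozygotes against the rest, 0 to 0 for homozygotes against wild types, 0 to 3 for homozygotes against heterozygotes and 0 to 3 for heterozygotes against wild types with an array left out. The calls came without wild type 2 (2 for homozygotes against the rest and 2 against heterozygotes) and without wild type 1 (3 for homozygotes against heterozygotes and 3 for heterozygotes against wild types). It was 1 for heterozygotes against wild types with the covariate for sex-linked expression. With the replicate number as a block it was 0 in each, with 410, 578, 347 and 790 at an unadjusted p under 0.05, against 560, 855, 488 and 1185 without the block. The cause of these changes was not tested.

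With the covariate for sex-linked expression, the difference of homozygotes from the rest turned to -1.37, -1.02, -1.2, -1.35 and -1.36 for the Sfrp1 probe sets, -0.65 for Sfrp2, -0.83 for Dkk2, -0.86 and -1.29 for Dkk3, -1.01 for Rspo3, -1.47 for Rspo2, -0.5 for Sfrp4, -0.91 for Cthrc1, -0.37 for Fzd2, 0.48 for Wnt9a, 0.05 for Nkd2 and 0.58 for Bcar1. For Wnt5a it turned homozygotes against heterozygotes to 0.15 (1436791_at), and heterozygotes against wild types to -0.38 (1436791_at) and -0.16 (1437673_at). Rspo3, at 0.01 from the rest, was at -0.05 without normalization, -0.008 with median scaling and -0.38 as a mean of probe sets. Heterozygotes against wild types for Wnt5a 1448818_at were at 0.1 without normalization and 0.35 as a mean of probe sets, and Tcf7l2 was at 0.23 as such a mean.

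With each array left out in turn, the difference of homozygotes from the rest ranged from -0.25 to 0.45 (Sfrp1 1438620_x_at), -0.07 to 3.18 (Sfrp2), -0.06 to 0.82 (Dkk3 1448669_at), -0.28 to 0.3 (Rspo3), -0.13 to 0.81 (Rspo2), -2.06 to 0.24 (Wnt6), -0.78 to 0.03 (Wnt5b), -0.68 to 0.17 (Wnt9a), -0.85 to 0.05 (Fzd5) and -0.02 to 0.42 (Znrf3). Homozygotes against wild types ranged from -0.0035 to 1.17 (Rspo3). Heterozygotes against wild types ranged from -0.19 to 0.33 (Wnt5a 1436791_at) and -0.08 to 0.38 (1437673_at), and -0.17 to 0.06 (1448818_at). Lgr6 was at -0.72 with the covariate. Over all settings, which test different numbers of probe sets, the count at an unadjusted p under 0.05 ranged from 131 to 2208 for homozygotes against the rest, 262 to 2468 against wild types and 121 to 2070 against heterozygotes, and from 433 to 3082 for heterozygotes against wild types. With the covariate Lgr5 was at 0.0075. Without normalization the median of all probe sets shifted by 0.11 in heterozygotes against wild types. Dim probe sets, as for Axin2 and Lef1, limit what can be seen.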
